A study of Gallus gallus with 60 samples.

Results

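Mitochondria carry their own ribosomes, and nearly all proteins of these ribosomes are encoded in the nucleus, made in the cytosol and imported. Precursors enter through the translocase of the outer membrane (TOMM proteins) and are sorted by translocases and chaperones of the inner membrane and the intermembrane space (TIMM proteins). The mitochondrial ribosome (large subunit proteins named MRPL, small subunit proteins named MRPS) then makes a small set of membrane proteins of the respiratory chain from mitochondrial DNA, on which the energy supply of neurons depends. The roles given below are those known from human and yeast mitochondria.

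The genes of this machinery were followed in the cerebrum of laying hens. Gene expression had been measured with 1 Affymetrix chicken gene array per hen in tissue from the posterior right site of the cerebrum, freed of meninges, of 60 hens aged 65 to 68 weeks. The hens belonged to 2 layer lines kept in a small group housing system in groups of 54 or 36 hens, namely 14 Lohmann Selected Leghorn (LSL) hens from groups of 54, 16 LSL hens from groups of 36, 16 Lohmann Brown (LB) hens from groups of 54 and 14 LB hens from groups of 36. Each compartment held 1 line. The study sampled 2 to 3 hens per compartment, more hens than were measured, so hens of 1 line can share a compartment. Hens were not drawn at random. The study chose between stressed and unstressed birds by handling behaviour, plumage and skin lesions, and the labels do not give this choice. The study's methods name left and right sites, whereas the labels give the right site alone.

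Rows of the deposited table were taken as members where the platform annotation gives 1 gene symbol for the first probe set, and where that symbol starts with MRPL or MRPS and a number, TIMM, TOMM, MTIF, MTRF, TFB1M, TFB2M, POLG, PITRM, OPA1, MFN1 or MFN2, or is TFAM. This gave 67 rows of 64 genes among 20396 rows, of which 16317 were tested because their mean reached the 20th percentile of row means (a log2 value of 5.08). All 67 member rows reached that limit in their mean, though not in every hen. They held 28 rows of genes named MRPL, 21 rows of genes named MRPS, 2 translation release factors (MTRF1 and MTRF1L), 5 rows of TOMM genes, 8 rows of TIMM genes, and TFAM, TFB1M and POLG2. Subgroups follow these names. No row was annotated with a symbol of the MTIF, PITRM or MFN genes, with TFB2M, with POLG or with OPA1. A row summarised between 1 and 12 probe sets in these genes. A value is a log2 RMA value, normalised by the authors over all arrays, and a log2 difference of 1 is a doubling. Values of different rows cannot be ranked as levels, because each row has its own probes.

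The arrays fell into 2 sets along the main axis of variation that remained after the 4 group means were removed. A smaller set held 18 arrays (10 LSL, 8 LB) and a larger set held 42 arrays (20 LSL, 22 LB), and the labels do not name these sets. Both lines and both group sizes were present in both sets. The neuronal marker SNAP25 lay between 11.99 and 12.48 in LSL and between 11.99 and 12.41 in LB. Over 7 marker lists (neurons, astrocytes, oligodendrocytes, microglia, endothelium, red blood cells and choroid plexus) the summed level overlapped between the lines in every list. Only 0.0981% of all tested rows separated all LSL from all LB hens, so this overlap does not show equal cell composition. The sum was taken over unlogged values, so it mostly follows the rows with the highest values. Of the listed markers, 5 of 10 neuronal and 3 of 8 oligodendrocyte genes were found. The oligodendrocyte list had the largest gap between medians, with a summed level of 12.08 to 12.71 (median 12.34) in LSL and 11.99 to 12.52 (median 12.23) in LB, and 1 of its 3 rows passed the test (MBP, 0.10 higher in LSL). CLDN11 and SOX10, the other rows of that list, were also higher, by 0.10 and 0.11, and did not pass. GAD2 of 5 neuronal rows was 0.18 lower in LSL, TREM2 row 1 of 5 microglial rows was 0.10 higher, and KL of 4 choroid plexus rows was 0.32 higher in LSL. The other rows of these lists did not pass. The other neuronal rows lay between -0.005 (SNAP25) and 0.05 (TUBB3), and the other microglial rows between -0.15 (CSF1R) and 0.06 (TREM2 row 2). In the choroid plexus list CLIC6 was at -0.17, and FOLR1 and OTX2 row 3 were at 0.02 each. When hens of consecutive numbers were treated as pairs in a random block, KL still passed, and MBP, GAD2 and TREM2 row 1 did not (adjusted p = 0.070, 0.071 and 0.11). With the array set also in that fit, MBP, GAD2 and TREM2 row 1 passed (adjusted p = 0.030, 0.0056 and 0.045). In whole tissue, fewer cells of a type cannot be told apart from less RNA per cell, and the part of cell composition in the differences below was not tested.

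Rows passed the test for layer line, and none did for group size or for the interaction. In LSL compared with LB, 8 of the 67 rows were up-regulated, 16 were down-regulated and 43 did not pass the test (limma, adjusted p under 0.05 over all 16317 tested rows). Up-regulated rows made up 11.9% of the members, where 10.8% of all tested rows were up-regulated. Down-regulated rows made up 23.9% of the members, where 11.9% of all tested rows were down-regulated. In either direction the shares were 35.8% of the members and 22.8% of all tested rows. The median log2 difference was -0.01 over the members and 0.00 over all tested rows. The differences were small, since 17 of the 24 rows that passed differed by less than 1.2-fold and MRPL13 alone reached 2-fold. No member row separated all LSL from all LB hens, which 0.0981% of all tested rows did.

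**Figure D1:**
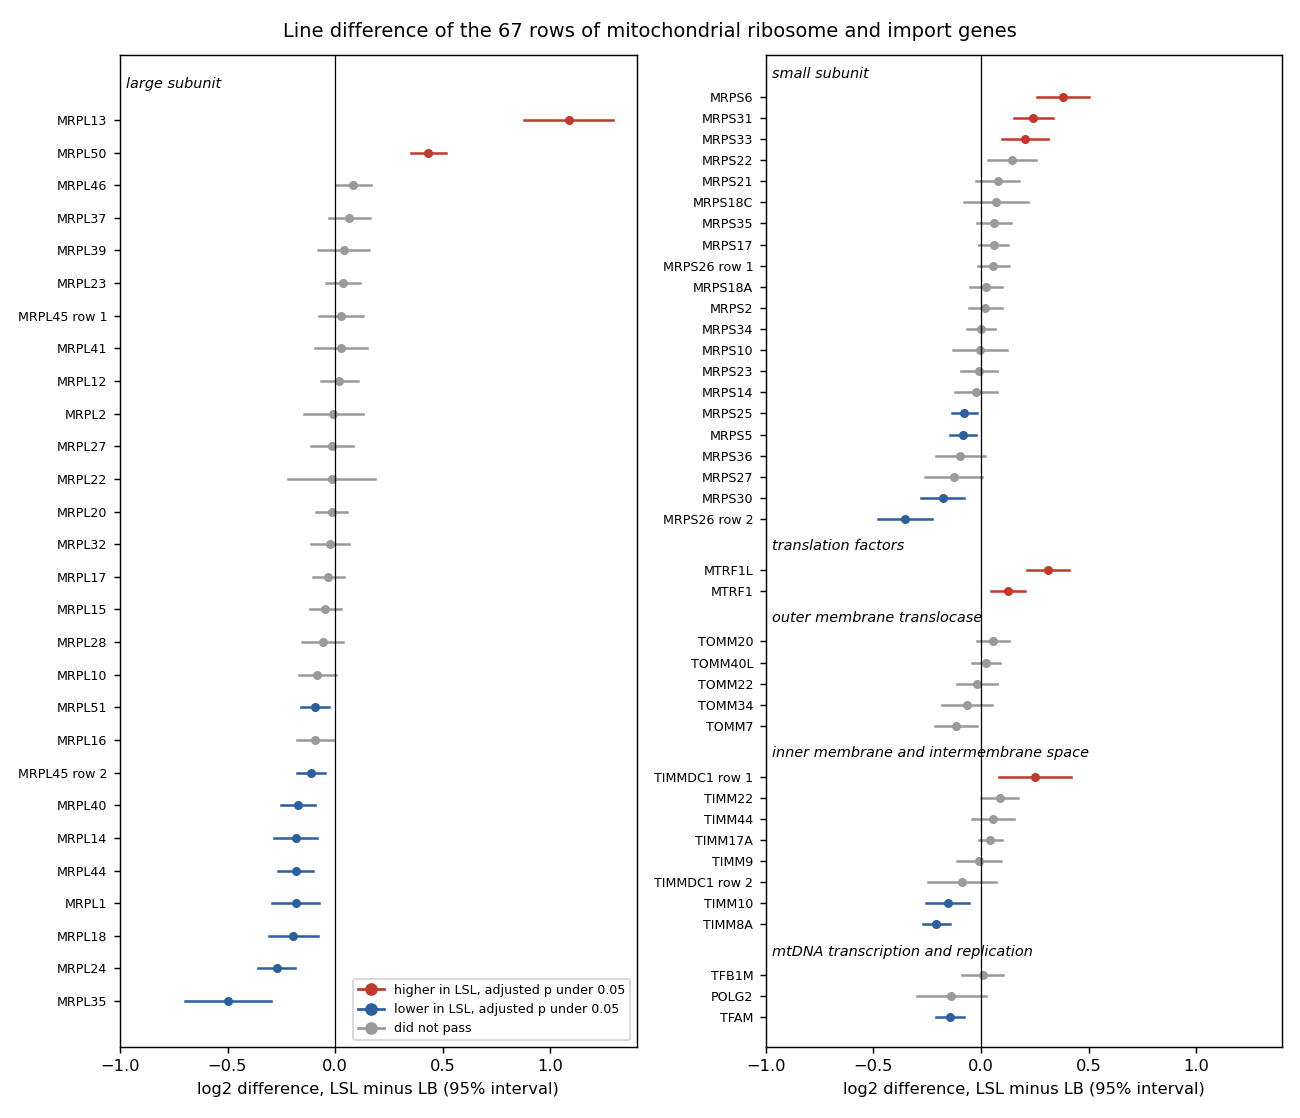
Log2 difference between the layer lines (LSL minus LB, x axis) for each of the 67 rows, with points for the estimate and bars for the 95% interval from limma (30 hens per line). Rows are grouped by role as read from the gene name and coloured by the result of the test. MRPL13 stands at 1.09, all other rows lie between -0.50 and 0.43, and none of the 5 TOMM rows passed (22.8% of all tested rows did).

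Among the large subunit proteins, 2 rows rose and 9 fell in LSL out of 28. These were 7.14% and 32.1%, against 10.8% and 11.9% of all tested rows. MRPL13, the counterpart of a bacterial ribosomal protein that binds the large subunit RNA, had the largest difference of all member rows. Its line difference was already known when the members were chosen, so its test adds no independent support. Its values in the 30 LSL hens were 5.77 at the lowest, 6.75 at the median and 7.21 at the highest, against 4.82, 5.59 and 6.85 in the 30 LB hens. MRPL13 averaged 6.65 ± 0.37 in LSL and 5.57 ± 0.44 in LB (SD, n = 30 each), a log2 difference of 1.09 (SE 0.10, adjusted p = 4.3e-13) or 2.12-fold. All 30 LSL hens lay above the LB median. Of the 30 LB hens, 7 lay above the lowest LSL hen. The 2 highest of them, 1 from a group of 54 with a value of 6.85 and 1 from a group of 36 with 6.69, stood apart from the next LB hen at 5.92.

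The values of MRPL13 within a line went with the array set, without overlap of the sets in LSL and with overlap in LB. The sets were found from the expression values, so this describes the arrays and is no test. In the smaller set the 10 LSL hens ranged from 5.77 to 6.61 and the 8 LB hens from 4.82 to 5.41, without overlap. In the larger set the 20 LSL hens ranged from 6.63 to 7.21 and the 22 LB hens from 5.04 to 6.85, with 20 of the 22 at or below 5.92. The line difference was 1.12 within the smaller set and 1.13 within the larger set. The row rests on 3 probe sets.

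MRPL50, a large subunit protein without a bacterial counterpart, was the clearest of the other members by its adjusted p. The LSL hens had 7.62 at the lowest, 7.94 at the median and 8.25 at the highest, against 7.18, 7.53 and 7.78 in LB. All 30 LSL hens lay above the LB median, and 27 of them above every LB hen. The log2 difference was 0.43 (SE 0.04, adjusted p = 5.8e-13). Layer line accounted for 65.4% of the variance of this row and for 64.5% of that of MRPL13, while the median was 4.64% over the members and 2.88% over all tested rows.

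The 9 large subunit rows that fell were MRPL35, MRPL24, MRPL18, MRPL1, MRPL44, MRPL14, MRPL40, MRPL45 row 2 and MRPL51. MRPL35, which like MRPL24 has a bacterial counterpart, had the largest fall. It had 4.81 at the lowest, 5.71 at the median and 6.62 at the highest in LSL, against 5.33, 6.19 and 7.10 in LB. The log2 difference was -0.50 (SE 0.10, adjusted p = 9.5e-05), and 26 of 30 LSL hens lay below the LB median. The row holds a single probe set. MRPL24 had 7.45, 7.80 and 8.10 (lowest, median and highest) in LSL and 7.67, 8.03 and 8.39 in LB, a log2 difference of -0.27 (SE 0.04, adjusted p = 1.1e-06). Here 29 of 30 LSL hens lay below the LB median.

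The other 7 of these rows differed by between -0.20 and -0.09, and the lines overlapped in each. MRPL44, which has the fold of a ribonuclease, averaged 7.38 ± 0.18 in LSL and 7.56 ± 0.13 in LB (SD, n = 30 each), a log2 difference of -0.18 (adjusted p = 0.00033). MRPL40 averaged 7.57 ± 0.15 in LSL and 7.74 ± 0.16 in LB (adjusted p = 0.00074). In both rows 28 of 30 LSL hens lay below the LB median. MRPL18, MRPL14 and MRPL1, which have bacterial counterparts, had log2 differences of -0.20, -0.18 and -0.18 and adjusted p of 0.0076, 0.0042 and 0.0088. MRPL45, which lies at the exit of the peptide tunnel, had 2 rows with estimates of opposite sign. Row 2, of 1 probe set, was -0.11 (adjusted p = 0.0060), and row 1, of 6 probe sets, was 0.03 (adjusted p = 0.75).

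**Figure D2:**
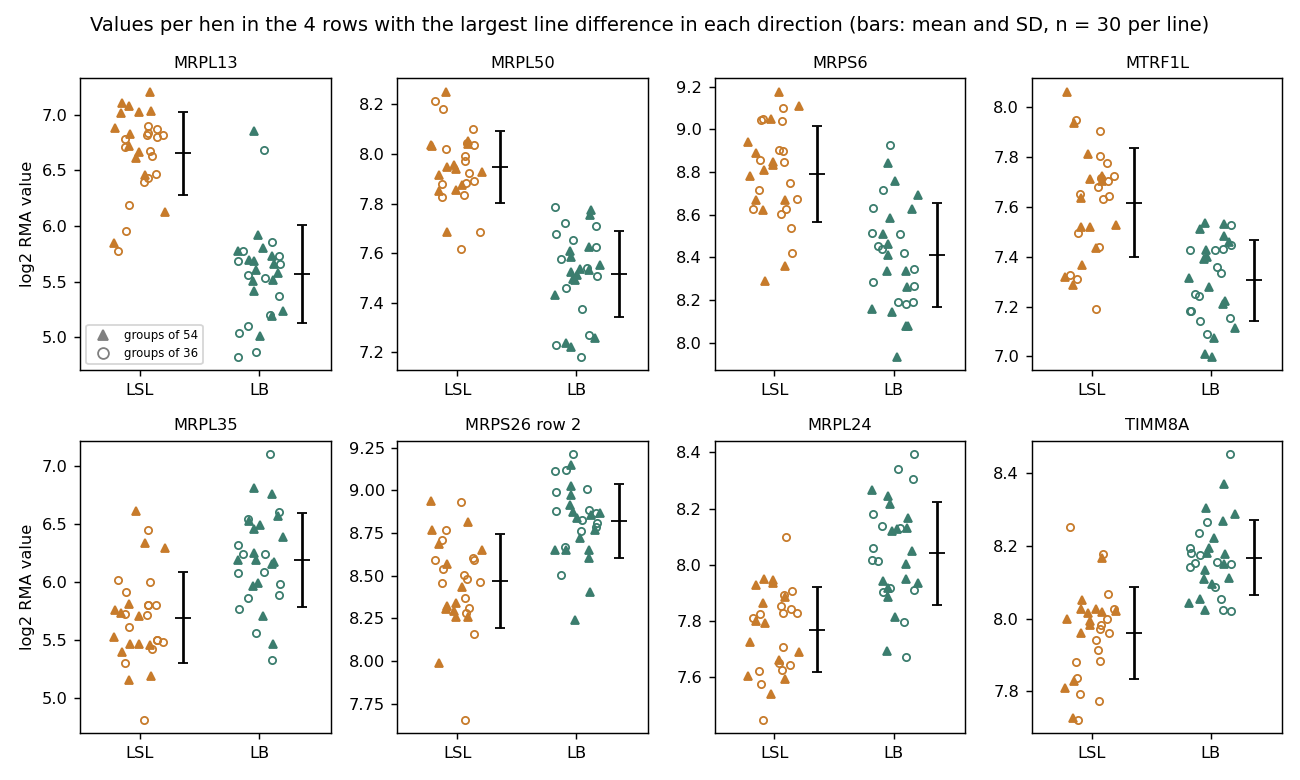
Log2 RMA values (y axis, a separate scale in each panel) of every hen for the 4 rows with the largest line difference in each direction, with LSL left of LB. Filled triangles are hens from groups of 54, open circles are hens from groups of 36, and bars give the mean and SD of 30 hens per line. The lines overlap in every panel. In MRPL50, 27 LSL hens lie above all LB hens, and in MRPL13, 7 LB hens lie above the lowest LSL hen, 2 of them near the LSL median.

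Among the 21 rows named MRPS, which were grouped by gene name, 3 rose and 4 fell in LSL. These were 14.3% and 19.0%, against 10.8% and 11.9% of all tested rows. MRPS6, the counterpart of a bacterial small subunit protein, had 8.29 at the lowest, 8.82 at the median and 9.18 at the highest in LSL, against 7.93, 8.42 and 8.93 in LB. Its log2 difference was 0.38 (SE 0.06, adjusted p = 8.4e-07), and 28 of 30 LSL hens lay above the LB median. MRPS31 and MRPS33, which belong to the proteins found in mitochondrial ribosomes alone, rose by 0.24 (SE 0.05, adjusted p = 3.2e-05) and 0.20 (SE 0.05, adjusted p = 0.0024). MRPS31 has 1 probe set.

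MRPS26 was the small subunit gene with the largest fall, but in 1 of its 2 rows. Row 2, of 1 probe set, had 7.66 at the lowest, 8.47 at the median and 8.94 at the highest in LSL, against 8.24, 8.85 and 9.21 in LB, a log2 difference of -0.35 (SE 0.06, adjusted p = 1.2e-05). Row 1, of 2 probe sets, averaged 7.21 ± 0.16 in LSL and 7.15 ± 0.11 in LB (SD, n = 30 each), a log2 difference of 0.06 that did not pass (adjusted p = 0.27). The estimates of the 2 rows had opposite signs. MRPS30, which sits in the large subunit in spite of its name, fell by 0.18 (SE 0.05, adjusted p = 0.0057). MRPS5 and MRPS25 fell by 0.08 each, with adjusted p of 0.0412 and 0.0411.

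Both release factors rose in LSL, where 10.8% of all tested rows did, and 2 rows are too few to compare with that share. MTRF1L, which ends synthesis at the stop codons, had 7.19 at the lowest, 7.65 at the median and 8.06 at the highest in LSL, against 7.00, 7.33 and 7.53 in LB. In this row 18 LSL hens lay above every LB hen, and the log2 difference was 0.31 (SE 0.05, adjusted p = 1.1e-06). MTRF1, a related release factor, averaged 7.41 ± 0.17 in LSL and 7.28 ± 0.14 in LB (SD, n = 30 each), a difference of 0.13 (adjusted p = 0.015). These rows rest on 9 and 11 probe sets.

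None of the 5 TOMM rows passed the test. TOMM20 and TOMM22, receptors for precursor proteins on the mitochondrial surface, had log2 differences of 0.06 (95% interval -0.02 to 0.13) and -0.02 (-0.11 to 0.07). TOMM7, a small subunit of the translocase, was at -0.12 (-0.21 to -0.02, adjusted p = 0.074). TOMM34, a cytosolic helper of precursor proteins, was at -0.07 (-0.18 to 0.05), and TOMM40L, a relative of the channel protein, was at 0.02 (-0.04 to 0.09). The interval bound farthest from 0 was that of TOMM7, at -0.21.

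Of the 8 TIMM rows, 1 rose and 2 fell in LSL (12.5% and 25.0%, against 10.8% and 11.9% of all tested rows). TIMM8A, a chaperone that escorts hydrophobic precursors through the intermembrane space, had 7.72 at the lowest, 7.98 at the median and 8.25 at the highest in LSL, against 8.02, 8.15 and 8.45 in LB. The log2 difference was -0.21 (SE 0.03, adjusted p = 2.6e-07), and 21 LSL hens lay below every LB hen. TIMM10, a chaperone of the same family, was at -0.15 (SE 0.05, adjusted p = 0.018). Its partner TIMM9 was at -0.01 (95% interval -0.11 to 0.09), and the difference between the 2 partners was not tested. TIMM22, TIMM17A and TIMM44, of the inner membrane translocases and their import motor, were at 0.09, 0.04 and 0.06 and did not pass (adjusted p between 0.15 and 0.46).

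The TIMM row that rose was row 1 of TIMMDC1, an assembly factor of respiratory complex I that is not itself a translocase. It averaged 6.86 ± 0.28 in LSL and 6.60 ± 0.37 in LB (SD, n = 30 each), a log2 difference of 0.25 (SE 0.08, adjusted p = 0.022). Row 2 of the same gene was at -0.09 (SE 0.08, adjusted p = 0.47). TIMMDC1, MRPS26 and MRPL45 were the 3 genes with 2 rows each. In all 3 the estimates of the 2 rows had opposite signs, and in none did rows pass in both directions in the main fit. With the array set as a block both rows of TIMMDC1 passed, row 1 higher and row 2 lower in LSL. The p-values of that fit may be too small.

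Of the genes of mitochondrial DNA, TFAM, which packages the DNA and starts its transcription, fell in LSL. It had 7.93 at the lowest, 8.13 at the median and 8.38 at the highest in LSL, against 8.04, 8.25 and 8.50 in LB, a log2 difference of -0.14 (SE 0.03, adjusted p = 0.00042). TFB1M, a methyltransferase of the ribosomal RNA of the small subunit, was at 0.01 (95% interval -0.09 to 0.10), and POLG2, the accessory subunit of the DNA polymerase, at -0.14 (-0.30 to 0.02, adjusted p = 0.23). OPA1, which fuses inner membranes, has no annotated symbol in the platform table. The study's list of probe sets that changed at least 2-fold in these same hens holds that name. The deposited row that contains the listed probe set joins 27 probe sets, and it is no member here. This row averaged 9.07 ± 0.09 in LSL and 8.83 ± 0.11 in LB (SD, n = 30 each), which is 1.18-fold. The study's entry and this row therefore differ in size, and whether they are the same measure was not tested.

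The number of probe sets moved with the share of rows called. Of the 21 member rows with 1 to 3 probe sets, 12 passed (57.1%), and of the 46 rows with 4 or more, 12 passed (26.1%). Over all tested rows the shares were 17.1% and 25.0%. Of the 5 member rows with a single probe set, 4 passed (MRPL35, MRPS26 row 2, MRPS31 and MRPL45 row 2). The part of single probe sets in these differences was not tested, since the deposited rows join them into 1 value.

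Among the 43 rows that did not pass, all 95% intervals lay within a log2 difference of 0.3 in either direction and 35 lay within 0.2. A p that missed the threshold did not show that the lines were equal in these rows. The bounds state how large a difference the 60 hens still allowed if hens are taken as independent. Hens of consecutive numbers were correlated, as given below, so these intervals may be too narrow.

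The direction of the line difference was the same in both group sizes and in both array sets for all 24 rows that had passed. The rows were chosen over these same hens, and the subsets share hens, so the shared direction is no replication. With fewer hens, fewer of them passed. These were 12 among the hens from groups of 54 alone, 13 among those from groups of 36 alone and 9 in both. Within the larger array set 21 of the 24 passed and within the smaller set 8. In all 4 subsets 7 rows passed (MRPL13, MRPL50, MRPS6, MTRF1L, MRPS26 row 2, MRPL24 and TIMM8A), with differences between 0.40 and 0.45 for MRPL50 and between 1.07 and 1.13 for MRPL13. With the array set as a block all 24 passed, and 5 further rows did. Of these, MRPS22 and TOMM20 were higher, and MRPS27, TOMM7 and TIMMDC1 row 2 were lower in LSL. Over all tested rows 2302 were higher and 2445 lower with this block. P-values with this block may be too small, because the sets were found from the same values.

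**Figure D3:**
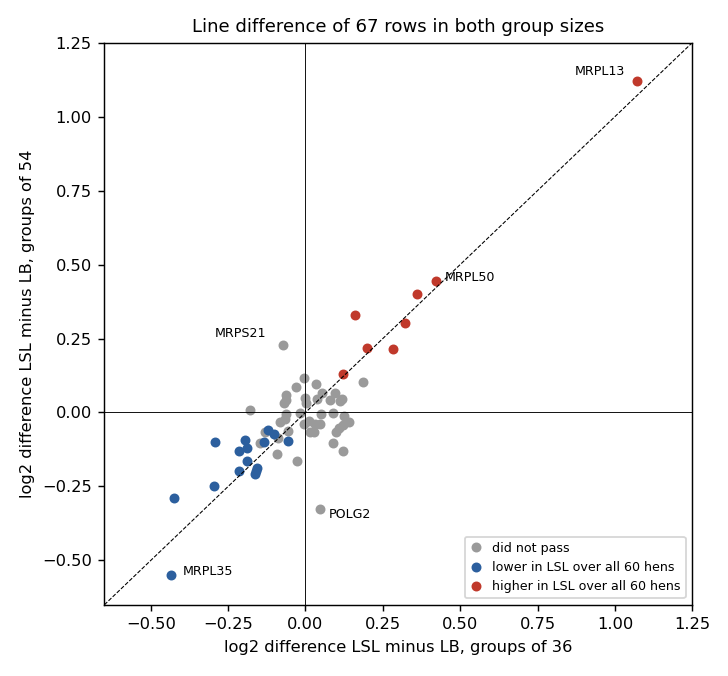
Log2 difference between the layer lines (LSL minus LB) among the 30 hens from groups of 54 (y axis) and among the 30 hens from groups of 36 (x axis) for the 67 rows, with the dashed line marking equal differences. All 8 rows that rose and all 16 that fell over the 60 hens have the same sign on both axes. They were chosen over these same hens, so the shared sign is no replication. MRPS21 and POLG2 lie off the dashed line.

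Consecutive hen numbers share line and group size, and the labels do not say whether such pairs shared a compartment. The correlation within pairs was 0.313 over all tested rows, so p-values that treat hens as independent may be too small and their intervals too narrow. With the array set in the model the correlation was 0.142, and no pair was split between the sets. With pairs as a random block 19 of the 24 rows passed. The 5 that did not were TIMMDC1 row 1 and TIMM10 (adjusted p = 0.054 each), MRPL51 (0.085), MRPS5 (0.099) and MRPS25 (0.10). With the array set also in that fit all 24 passed. Its p-values may be too small as well, because the sets were found from the same values. Over all tested rows 1297 were higher and 1478 lower with pairs, and 2017 and 2188 with pairs and array set. Without either these were 1765 and 1949.

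Group size was compared over 30 hens from groups of 54 and 30 from groups of 36. None of the 67 rows passed, as was the case for all tested rows (0%). At an unadjusted p under 0.05, 1 member row and 888 of all tested rows (5.44%) differed, and the t-test of the study's methods with Benjamini-Hochberg adjustment also called none. The member was MRPS30, which averaged 7.07 ± 0.22 in groups of 54 and 6.96 ± 0.20 in groups of 36 (SD, n = 30 each), a log2 difference of 0.11 (95% interval 0.00 to 0.22, adjusted p = 0.87). MRPL45 row 2 (-0.06) and MRPL27 (0.09) followed. In 65 of the 67 rows the 95% interval lay within 0.3 in either direction. These intervals take hens as independent and may be too narrow, since the correlation within pairs was 0.367 for group size. The widest interval was that of MRPL13, with -0.25 to 0.44. This fit held group size alone, so the line difference of MRPL13 was part of the spread behind its interval.

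**Figure D4:**
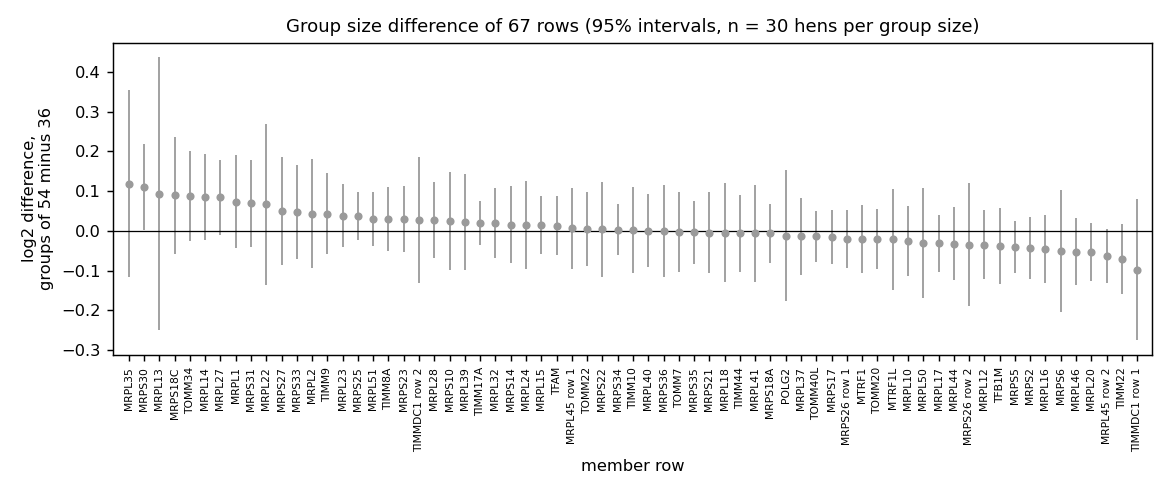
Log2 difference between hens from groups of 54 and hens from groups of 36 (y axis) for the 67 rows, ordered by the estimate, with 95% intervals from limma (30 hens per group size). The estimates lie between -0.10 and 0.12, and no row passed after adjustment.

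Whether the line difference depended on group size was tested as an interaction. None of the 67 rows passed, as for all tested rows (0%). An unadjusted p under 0.05 was found in 5 of the 67 members and in 802 of all tested rows (4.92%). In MRPS21, a small subunit protein, the line difference was 0.23 in groups of 54 and -0.07 in groups of 36, an interaction of 0.30 (95% interval 0.11 to 0.49, unadjusted p = 0.0025, adjusted p = 1.00). In POLG2 it was -0.33 in groups of 54 and 0.05 in groups of 36, an interaction of -0.37 (-0.69 to -0.06, unadjusted p = 0.020). In MRPL10 it was 0.01 in groups of 54 and -0.18 in groups of 36. The intervals of the interaction reached as far as -0.69 and 0.51, so this comparison bounded the members less closely than the other 2. They too take hens as independent and may be too narrow.

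Members also varied among hens of 1 group. The SD within groups ranged from 0.099 to 0.407 with a median of 0.183, close to the 0.184 of all tested rows. It was largest in MRPL13, MRPL22, MRPL35 and the 2 rows of TIMMDC1. MRPL22, a large subunit protein whose bacterial counterpart lines the peptide tunnel, did not differ by line beyond its spread (log2 difference -0.02, 95% interval -0.22 to 0.19). It had 8.39 at the lowest, 9.27 at the median and 9.76 at the highest in LSL, against 8.40, 9.26 and 9.65 in LB. In both lines its values fell into 2 separate ranges, with none between 8.75 and 9.02.

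The 18 hens below that gap were 10 LSL and 8 LB hens, and all 18 were the hens of the smaller array set. MRPS27, a small subunit protein that binds RNA, had 17 hens at or below 7.41 and the next at 7.53, and all 17 were in the smaller set. The sets were found from the expression values, so these gaps describe the arrays and are no test. With the array set as a block the line difference of MRPS27 passed (-0.09, adjusted p = 0.0052), and without the block it did not (-0.13, adjusted p = 0.17).

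**Figure D5:**
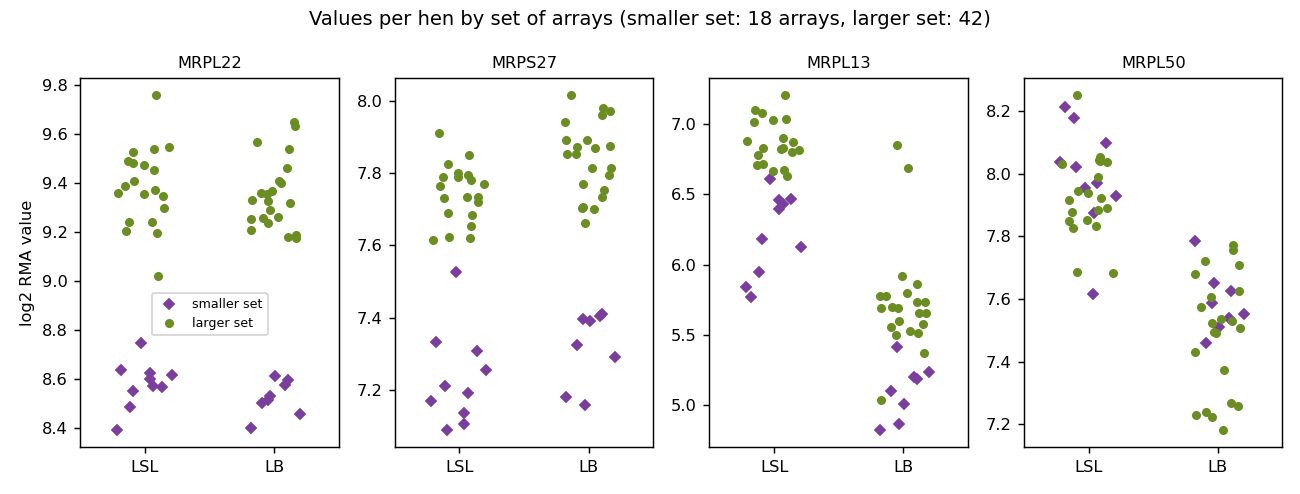
Log2 RMA values (y axis, a separate scale in each panel) of every hen for MRPL22, MRPS27, MRPL13 and MRPL50, with LSL left of LB. Purple diamonds are the 18 arrays of the smaller set and green circles the 42 arrays of the larger set. In MRPL22 the diamonds lie at or below 8.75 and the circles at or above 9.02 in both lines, whereas in MRPL50 diamonds and circles overlap.

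Genes of the same processes under other names were followed as 3 lists. Of the listed symbols, 15 of 32, 21 of 39 and 23 of 44 were found, in the order of the lists below. The shares and medians therefore cover only part of each list. Of 15 rows of other ribosomal proteins, assembly factors and translation factors, 1 rose (6.67%, against 10.8% of all tested rows) and 4 fell (26.7%, against 11.9%) in LSL. ERAL1, a chaperone of the small subunit RNA, was 0.25 higher (SE 0.04, adjusted p = 3.5e-07). NOA1, a GTPase needed for ribosome assembly, was at -0.32 (SE 0.04, adjusted p = 6.5e-08), and FASTKD2, which binds the large subunit RNA, at -0.30 (SE 0.07, adjusted p = 0.0014). MTG1, an assembly GTPase, and DAP3, a small subunit protein, were at -0.15 and -0.08 and passed (adjusted p = 0.023 and 0.013). MTG1 did not pass in the fit that blocks on pairs (adjusted p = 0.10), and it passed with the array set also in that fit (adjusted p = 0.031). The median over the 15 rows was -0.02.

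Of 22 rows of import, sorting and quality control genes, 3 rose and 2 fell, with a median of -0.01. The 22.7% that passed in either direction was close to the 22.8% of all tested rows. PMPCB, the catalytic subunit of the peptidase that removes import signals, had 7.40 at the lowest, 7.89 at the median and 8.18 at the highest in LSL, against 8.00, 8.29 and 8.64 in LB. Its log2 difference was -0.42 (SE 0.05, adjusted p = 4.3e-11). SAMM50, which inserts barrel proteins into the outer membrane, had 9.35, 9.59 and 9.87 (lowest, median and highest) in LSL and 8.67, 9.36 and 9.57 in LB, a log2 difference of 0.38 (SE 0.06, adjusted p = 7.7e-07). DNAJC15, a cochaperone of the import motor, rose by 0.27, CLPX, the unfolding subunit of a matrix protease, rose by 0.10, and PHB2, a scaffold protein of the inner membrane, fell by 0.23 (adjusted p = 0.00045, 0.028 and 5.7e-07). With the pair block CLPX did not pass (adjusted p = 0.060), and it passed with the array set also in that fit (adjusted p = 0.00015).

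Of 23 rows of genes for mitochondrial DNA upkeep, biogenesis and dynamics, 5 rose (21.7%, against 10.8% of all tested rows) and 3 fell (13.0%, against 11.9%), with a median of 0.03. The subunits of the transcription factor GABP, which drives nuclear genes for mitochondria, went in opposite directions, as GABPA rose by 0.18 and GABPB1 fell by 0.23 (adjusted p = 0.0032 and 0.00028). SLC25A36, a nucleotide carrier, rose by 0.16 and TRAK2, an adaptor for transport along microtubules, by 0.11. MTFR1, a fission regulator, fell by 0.21 and SLC25A4, the ADP/ATP carrier, fell by 0.22. RHOT2 and MFF were 0.10 and 0.09 higher, and with the pair block RHOT2 did not pass (adjusted p = 0.063). With the array set also in that fit RHOT2 passed (adjusted p = 0.018). PPARGC1A and NRF1, regulators of biogenesis, were at -0.01 and 0.01 and did not pass (adjusted p = 0.90 and 0.93).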

How the data were processed

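The authors scanned 1 array per hen (60 hens), summarised the scans by RMA with quantile normalization in GeneSpring GX and deposited them as log2 values in 2 tables, which held the same values over 20396 shared rows (largest difference 0). Of 20399 deposited rows, 1 empty row and 2 named control rows were left out, and 16317 rows whose mean reached the 20th percentile were tested. Array medians ranged from 6.863 to 6.864. Gene symbols came from the platform annotation of each row's first probe set: 8390 rows had 1 symbol, 86 several and 11920 none. The members, lists and rules were chosen with earlier results of these data known.

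Layer line, group size and their interaction were each fitted with lmFit and eBayes (limma 3.58.1, R 4.3.3) on log2 values. Benjamini-Hochberg adjustment was over all tested rows, with a threshold of 0.05. Layer line and group size were fitted alone, as the study's methods test each effect on its own. The interaction was fitted with both effects in the model and is not among the study's array tests. The study also tested tier, which the labels do not give. The fit was tested on simulated normal values of independent hens. These held no pairs and no array sets, so they cannot show the rate of false calls in the real hens. Hens were taken as replicates. Alternatives were the filter, covariates, array sets, hen pairs, centring and the t-test of the methods. Genes were named by rule: MRPL13 and OPA1, up to 12 rows per direction, the first 2 per role, 3 rows for group size and interaction, the 5 most variable rows, and 3 per direction in lists. Rows outside the rule were named after their values were seen. The number of arrays limits the precision. Scanner files and single probe sets were not used here.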

Additional observations from a re-analysis of the deposited data

How the results depend on the processing

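Over all 60 hens 24 member rows passed for layer line, 8 higher and 16 lower in LSL. In the smaller array set alone 9 rows passed (5 higher, 4 lower), among hens from groups of 54 alone 14 (6 lower), and among hens from groups of 36 alone 13 (5 higher, 8 lower), each with fewer hens. Calls fell over all 16317 tested rows too. There 543 were higher and 641 lower in the smaller set, 775 and 1049 in groups of 54, and 874 and 882 in groups of 36. Other filters, covariates, centrings, the pair block and the methods' t-test kept the counts of member rows within 1.5 times. Over 27 named rows and 13 alternatives, 299 of 351 values kept direction and side of the threshold, 34 no longer passed, 4 newly passed and 14 turned sign, none of them past the threshold with or without the alternative. These were MRPL10 (0.0078 in the smaller set, 0.0070 in groups of 54), MRPL22 (0.039 with the set block, with or without pairs, 0.032 in the larger set, 0.056 in the smaller set, 0.041 in groups of 54), MRPL27 (0.0028 with the set block, with or without pairs, 0.0057 in the larger set, 0.012 in groups of 36), MRPS21 (-0.072 in groups of 36) and POLG2 (0.097 in the smaller set, 0.046 in groups of 36). The cause was not tested. Centring arrays on the member median gave 1229 higher and 2100 lower among all tested rows, against 1765 and 1949 without it. No group size or interaction result passed under any alternative run. No paired analysis was possible because each hen carries its own number and no number is shared between groups.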

Other observations

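The nearest genes with a tested row on either side, in the gene order of the GRCg7b assembly, were set beside the 4 members with the largest difference in each direction (MRPL13, MRPL50, MRPS6, MTRF1L, MRPL35, MRPS26 row 2, MRPL24 and TIMM8A). This comparison was chosen after the values had been seen. Not all of these genes are close, and the farthest, ATG10, lay 1647 kb from MRPL50. Of 48 neighbouring rows, 3 on each side, 5 were higher and 5 lower in LSL (10.4% each, against 10.8% and 11.9% of all tested rows), and all lay between -0.20 and 0.15 on the log2 scale. MRPL13, at 1.09, lies between COL14A1, at 0.10 (adjusted p = 0.11), and MTBP, at -0.15 (adjusted p = 0.027). MAVS, an adaptor of antiviral signalling that lay 101 kb from MRPS26, had the lowest estimate of the 48 rows, at -0.20 (SE 0.03, adjusted p = 1.4e-08). PTPRA, OXT, AVP and UBOX5, which lay closer to MRPS26, were at -0.02, -0.01, 0.05 and 0.01 and did not pass.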
